A study of Mus musculus with 24 samples.

Results

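The 10 genes described here are markers of Kupffer cells, the resident macrophages of the liver, and of macrophages in general: Clec4f, Vsig4, Cd5l, Marco, Adgre1, Cd68, Csf1r, C1qa, C1qb and C1qc. They were chosen by name and found through the gene symbols of the platform annotation, as 10 of 18193 genes and 15 of 34945 probe sets with 1 symbol. Each gene is represented by its brightest probe set unless stated. Each of 24 male mice of the BALB/c strain, obtained when 6 weeks old, gave liver RNA for 1 Affymetrix array. There were 4 diets with 6 mice each, eaten for 14 days: AIN93G, a purified rodent diet, as the control, and AIN93G with 0.1%, 0.5% or 1.0% quercetin, a plant flavonol. The comparison asks whether these markers differ from control at any dose or follow the dose. Cages held 3 mice and cage membership is not part of the fits, so effects of cage and diet cannot be told apart. P-values set the differences between diets against the spread between mice, taken as independent. If mice of a cage were alike, p-values would be too small and intervals too narrow.

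Kupffer cells line the liver sinusoids, where they take up bacteria, immune complexes and worn-out red blood cells from portal blood. Their survival depends on signalling through the CSF1 receptor, and resident cells carry surface receptors that newly arrived monocytes lack until they mature. In homogenised liver these transcripts are diluted by hepatocyte RNA, and fewer cells of a type cannot be told apart from less RNA per cell. The tissue label was checked against 7 hepatocyte genes: Alb, Apoa1, Ttr, Cyp2e1, Cps1 and Tat were brighter than at least 98.4% of genes, and Ass1 than 52.2%.

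The macrophage transcription factor PU.1 binds purine-rich DNA with a GAGGAA core, so promoters were scanned for these letters in the 250 bases before the gene start on both strands. RefSeq promoter sequences (GRCm38.p6) were matched for 7 markers, Clec4f, Vsig4, Cd5l, Marco, Cd68, C1qb and C1qc, and not for Adgre1, C1qa and Csf1r. GAGGAA was found in 6 of the 7, all but Clec4f, against 25.9% of 27025 genes. The longer GAGGAAGT, which overlaps it, was in 1 of the 7, C1qc, against 2.79% of genes. TGACTCA was in Cd68 alone (5.16% of genes) and TATAAA in 0 of 7 (14.3%). A match describes the letters and is no evidence of binding. A stretch around 1 match is shown for 4 of the 6 markers, and those of Marco and Cd68 are not shown. GAGGAA or its complement TTCCTC is in capitals, and each stretch is read 5′ to 3′ on the strand of the gene.
C1qb, chr4:136886201-136886260, minus strand: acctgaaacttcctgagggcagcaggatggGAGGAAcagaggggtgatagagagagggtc
C1qc, chr4:136893072-136893137, minus strand: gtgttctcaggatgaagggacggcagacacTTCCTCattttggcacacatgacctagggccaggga
Vsig4, chrX:96293456-96293521, minus strand: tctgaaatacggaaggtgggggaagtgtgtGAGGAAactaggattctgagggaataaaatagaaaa
Cd5l, chr3:87357785-87357850, plus strand: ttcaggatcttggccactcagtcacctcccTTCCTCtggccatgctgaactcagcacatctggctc
The match shown began 30 bases before the start of C1qb, 193 before C1qc, 53 before Vsig4 and 66 before Cd5l. Vsig4 had another match, beginning 155 bases before its start, that is not shown.

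None of the 10 markers passed the test in any comparison (limma, Benjamini-Hochberg adjusted p under 0.05 over 18193 genes). The diet groups overlapped in 60 of 60 pairs of groups over the markers. Overlap was not counted for all genes, so this count does not set the markers apart. In the comparisons with control, 0 of 10 passed at 0.1%, where 0% of all genes passed, 0 of 10 at 0.5% (0.0165% of all genes) and 0 of 10 at 1.0% (0.022%). The slope over dose, the change in log2 per 1 percentage point of quercetin, passed for 0 of 10 (0.0989% of all genes), as did the test of any difference among the diets (0.181%). With so few genes passing at all, the count of markers does not set them apart. At an unadjusted p under 0.05 limma had 0, 1 and 0 of 10 markers at 0.1%, 0.5% and 1.0%, against 5.11%, 7.65% and 8.92% of all genes. Cd5l at 0.5% was the 1 marker. For the slope 3 of 10 had an unadjusted p under 0.05 (Vsig4, Marco and Adgre1), against 10.9% of genes, and for any difference 0 of 10, against 9.49%. Without normalization between arrays, or with arrays centred on their medians, only Marco of the 3 stayed under 0.05 (unadjusted p = 0.0231 and 0.0305, limma). Marco is a dim gene, and its second probe set had a slope of -0.55.

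**Figure D1:**
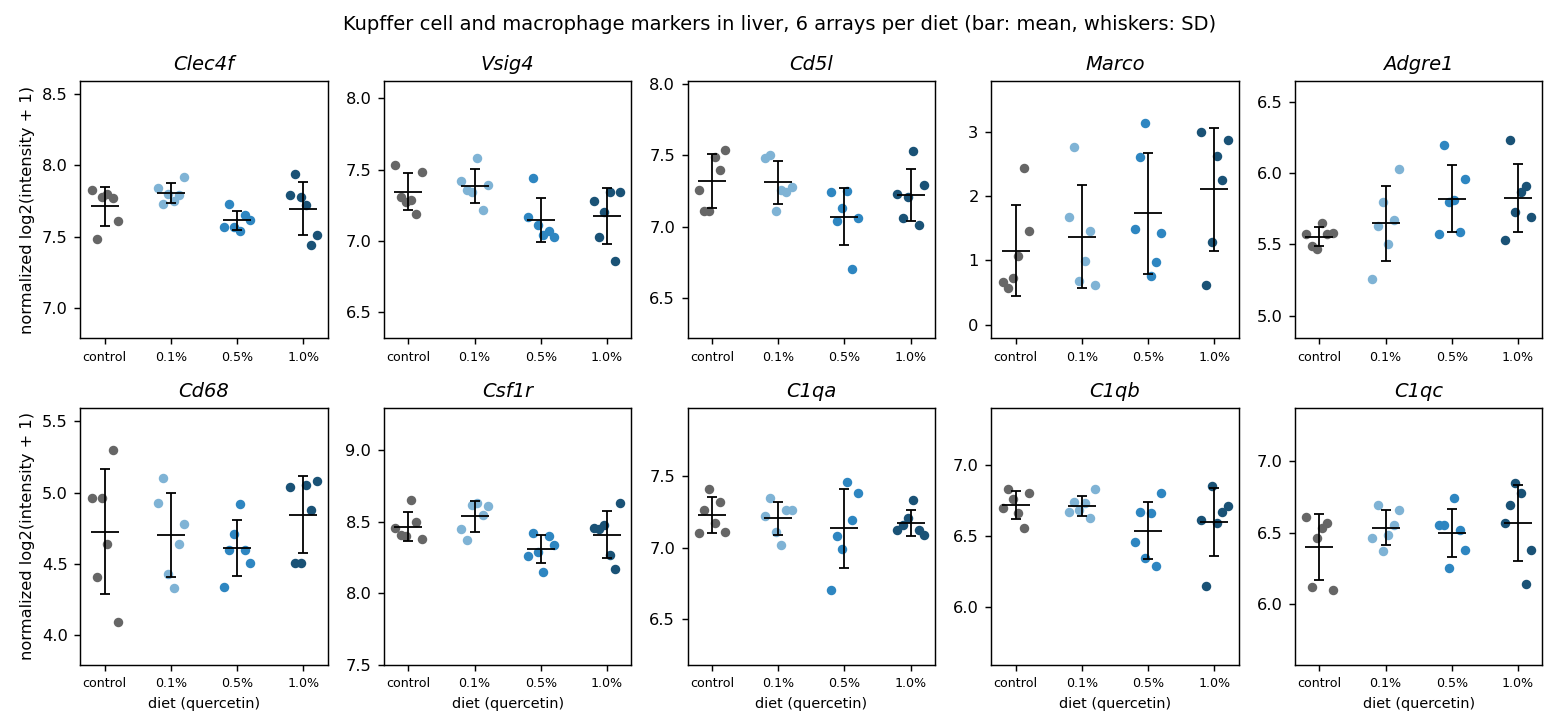
Normalized log2(intensity + 1) of each marker (vertical axis, a separate range for each gene with the same height except Marco) against diet, with 1 point per array, a bar at the mean and whiskers of 1 SD (n = 6). The groups overlap in every panel, and Marco spans the widest range, 0.57 to 3.14.

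Values are quantile-normalized log2(intensity + 1). A difference of 0.10 corresponds to about 1.07-fold on that scale. The residual spread between mice of one diet had an SD of 0.12 to 0.31 for the 9 markers other than Marco, against 0.50 for the median gene. The 95% intervals of these 9 markers at 1.0% lay between 0.77-fold and 1.46-fold of control. At 0.1% they lay between 0.76-fold and 1.32-fold, and at 0.5% between 0.71-fold and 1.45-fold.

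Clec4f, a C-type lectin receptor restricted to Kupffer cells in mouse liver, binds glycans. It ran from 7.48 to 7.83 in control (median 7.78), from 7.73 to 7.92 at 0.1% (7.79), from 7.54 to 7.73 at 0.5% (7.60) and from 7.44 to 7.94 at 1.0% (7.75). The 1.0% group held both the lowest and the highest array of all. The mean differed from control (7.71 ± 0.14, SD, n = 6) by 0.09 at 0.1%, -0.10 at 0.5% and -0.01 at 1.0% (SE 0.09 each). The 95% interval at 1.0% was -0.20 to 0.17, or 0.87-fold to 1.13-fold of control.

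Vsig4, the complement receptor CRIg that takes up particles coated with C3 fragments, stood lowest at the higher doses. Control arrays ran from 7.19 to 7.53 (median 7.30), 0.1% arrays from 7.22 to 7.58 (7.38), 0.5% arrays from 7.03 to 7.44 (7.09) and 1.0% arrays from 6.86 to 7.34 (7.24). In the 1.0% group 0 of 6 arrays lay above the control mean of 7.34 ± 0.13 (SD), yet the ranges overlapped. The difference was -0.20 at 0.5% (SE 0.10, adjusted p = 0.657) and -0.17 at 1.0% (95% interval -0.38 to 0.04, adjusted p = 0.66). At 0.5% it was 0.02 without normalization and -0.06 centred on array medians. Its slope was -0.22 (SE 0.09, 95% interval -0.41 to -0.03), with an unadjusted p of 0.027 and an adjusted p of 0.384 in limma. Without normalization the slope was -0.18 and centred -0.24 (unadjusted p = 0.273 and 0.0549, limma).

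Cd5l, a secreted scavenger-receptor protein of tissue macrophages also called AIM, was lowest at 0.5%. Values ran from 7.11 to 7.54 in control (median 7.33), 7.11 to 7.50 at 0.1% (7.27), 6.70 to 7.25 at 0.5% (7.09) and 7.01 to 7.53 at 1.0% (7.22). The 0.5% group had 0 of 6 arrays above the control mean, and its lowest array stood apart from the rest; without that array the difference was -0.18 (unadjusted p = 0.129, adjusted p = 0.693 in limma). Its difference from control was -0.25 at 0.5% (SE 0.12, 95% interval -0.49 to -0.01, unadjusted p = 0.0408, adjusted p = 0.635 in limma) and -0.10 at 1.0% (SE 0.12). At 0.5% it was -0.02 without normalization between arrays (unadjusted p = 0.925, limma) and -0.10 centred on array medians (unadjusted p = 0.496, limma). The order of the means was control, 0.1%, 1.0%, 0.5%, with no pair of neighbours passing.

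Marco, a scavenger receptor for bacteria and particles, gave a dim signal, brighter than 15.9% of genes. Its deposited intensities were 0.342 to 8.21. Control arrays ran from 0.57 to 2.43 (median 0.89), 0.1% arrays from 0.62 to 2.76 (1.22), 0.5% arrays from 0.76 to 3.14 (1.45) and 1.0% arrays from 0.61 to 3.00 (2.43). The means stood in the order of the doses, and the lowest array of each group was at a similar level. The difference at 1.0% was 0.96 (SE 0.48, 95% interval -0.03 to 1.95, adjusted p = 0.586) and the slope was 0.92 (SE 0.41, unadjusted p = 0.0352, adjusted p = 0.418, limma). The second probe set of the gene pointed the other way at 1.0% and for the slope, as given below.

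Adgre1 encodes F4/80, the classic surface antigen of mouse macrophages. Its arrays ran from 5.47 to 5.65 in control (median 5.57), 5.26 to 6.03 at 0.1% (5.65), 5.57 to 6.20 at 0.5% (5.80) and 5.53 to 6.23 at 1.0% (5.80). The control arrays were close together (SD 0.07) while the SD of the quercetin groups was 0.24 to 0.26. Of the arrays at 0.5% 6 of 6, and at 1.0% 5 of 6, lay above the control mean. The difference was 0.27 at 0.5% (SE 0.13, 95% interval -0.01 to 0.54, adjusted p = 0.657) and 0.27 at 1.0% (-0.00 to 0.55, adjusted p = 0.559), about 1.20-fold and 1.21-fold. At 0.5% it was 0.46 without normalization (unadjusted p = 0.00738, adjusted p = 0.517, limma) and 0.37 centred on array medians (unadjusted p = 0.0054, adjusted p = 0.547). At 1.0% the difference was 0.31 without normalization and 0.20 centred (unadjusted p = 0.0591 and 0.112, limma). The slope was 0.26 (SE 0.12, unadjusted p = 0.0354, adjusted p = 0.419, limma). Without normalization the slope was 0.29 and centred 0.23 (unadjusted p = 0.0636 and 0.0673, limma).

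Cd68, the lysosomal glycoprotein macrosialin, varied most between mice after Marco, from 4.09 to 5.30 in control (median 4.80), 4.33 to 5.10 at 0.1% (4.71), 4.34 to 4.92 at 0.5% (4.60) and 4.51 to 5.08 at 1.0% (4.96). The control range enclosed every other array. The difference at 1.0% was 0.12 (SE 0.18, 95% interval -0.25 to 0.49).

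Csf1r encodes the receptor for CSF1 and IL-34, on which macrophages depend. Its arrays ran from 8.38 to 8.65 in control (median 8.43), 8.37 to 8.63 at 0.1% (8.58), 8.15 to 8.42 at 0.5% (8.31) and 8.17 to 8.63 at 1.0% (8.45). At 0.5%, 0 of 6 arrays lay above the control mean of 8.46 ± 0.10 (SD). The difference from control was -0.16 at 0.5% (95% interval -0.33 to 0.02, adjusted p = 0.697) and -0.05 at 1.0% (-0.23 to 0.12, SE 0.09). At 0.5% it was 0.07 without normalization and -0.02 centred on array medians.

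The chains of C1q, the recognition unit of the classical complement pathway, are made by macrophages and are encoded by neighbouring genes, an unbroken run of 3 on chromosome 4 in the order C1qb, C1qc, C1qa. C1qa ran from 7.10 to 7.41 in control (median 7.22), 7.02 to 7.35 at 0.1% (7.24), 6.70 to 7.46 at 0.5% (7.13) and 7.09 to 7.33 at 1.0% (7.14). C1qb ran from 6.56 to 6.83 in control (6.73), 6.63 to 6.83 at 0.1% (6.70), 6.29 to 6.80 at 0.5% (6.56) and 6.15 to 6.85 at 1.0% (6.64). C1qc ran from 6.10 to 6.61 in control (6.50), 6.37 to 6.69 at 0.1% (6.52), 6.25 to 6.74 at 0.5% (6.53) and 6.14 to 6.85 at 1.0% (6.63). The groups overlapped for all of them, and the chains did not share a direction. At 1.0% the difference was -0.06 for C1qa (95% interval -0.28 to 0.17), -0.12 for C1qb (-0.34 to 0.10) and 0.17 for C1qc (-0.09 to 0.43). None of these intervals excludes 0. Without the lowest C1qb array of the 1.0% group the difference of C1qb was -0.03 (SE 0.09).

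**Figure D2:**
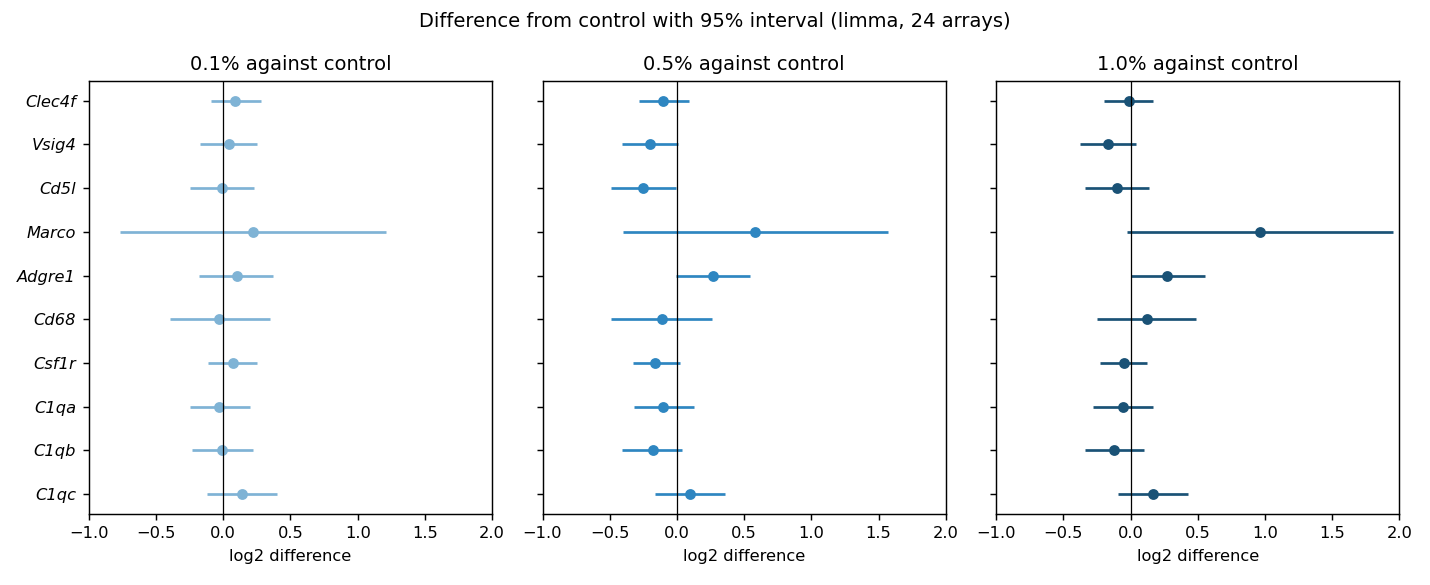
Difference from control in log2 (horizontal axis) for each marker at 0.1%, 0.5% and 1.0% quercetin, with the point at the limma estimate and the line its 95% interval over 24 arrays. The interval lies below 0 for Cd5l at 0.5% (-0.49 to -0.01) and reaches 0 or beyond in the other panels' rows, and Marco has the widest interval at each dose.

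No marker passed between doses either, while directions and counts at an unadjusted p under 0.05 in limma differed from pair to pair. Between 0.5% and 0.1% limma passed 0 of 10 markers (0.214% of all genes passed) and 4 had an unadjusted p under 0.05, against 10.1% of all genes. Those 4 were all lower at 0.5%: Csf1r by -0.23 (95% interval -0.41 to -0.05, adjusted p = 0.358), Vsig4 by -0.24 (adjusted p = 0.398), Cd5l by -0.24 (adjusted p = 0.488) and Clec4f by -0.19 (adjusted p = 0.49). Without normalization these differences were -0.10, -0.10, -0.10 and -0.05, and centred on array medians -0.06, -0.06, -0.06 and -0.01. Over all the markers 2 lay higher and 8 lower at 0.5% than at 0.1% (median -0.13), against 4 and 6 without normalization (median -0.03) and 5 and 5 when centred (median 0.01). Between 1.0% and 0.1% 0 of 10 passed (0.253% of all genes) and Vsig4, lower by -0.21 (adjusted p = 0.523), had the 1 unadjusted p under 0.05, against 9.42% of all genes. Between 1.0% and 0.5% 0 of 10 passed (0.022% of all genes), 0 had an unadjusted p under 0.05 (6.19% of all genes), and 10 of 10 lay higher at 1.0%, with a median of 0.08 against 0.01 for all genes. Without normalization between arrays, or centred on array medians, 2 of 10 lay higher in that comparison.

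As a group the markers had small median differences from control. Their median difference was 0.06 at 0.1%, -0.10 at 0.5% and -0.03 at 1.0%, against 0.01, -0.02 and -0.01 for all genes. The median size of their differences, whatever the sign, was 0.06, 0.17 and 0.12, against 0.16, 0.19 and 0.20. For 9 of the markers the residual SD was below that of the median gene, so sizes in log2 do not rank the markers among all genes. Higher than control were 6, 3 and 4 of 10. These doses share the control arrays. Without normalization the median difference of all genes from control was 0.11, 0.15 and 0.05. Then 10, 9 and 5 of 10 markers lay higher than control with medians of 0.15, 0.10 and 0.01, close to those of all genes. Under one or both of these scalings (no normalization, and centring on array medians) the sign turned for Cd5l, Vsig4, C1qa, C1qb and Cd68 at 0.1%, for Clec4f, Vsig4, C1qa, C1qb, Cd68 and Csf1r at 0.5% and for Clec4f at 1.0%. It was kept for the other markers and doses.

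At 1.0% the probe sets of C1qb, Csf1r and Marco did not share a direction. For C1qb the brightest differed from control by -0.12 at 1.0%, and the others by 0.26 and 0.12. For Csf1r the values at 1.0% were -0.05, -0.19 and 0.01. Its probe sets shared a direction at 0.1% (0.07, 0.08 and 0.03) and at 0.5% (-0.16, -0.07 and -0.03). The probe sets of Marco gave 0.22 and 0.35 at 0.1%, 0.58 and -0.30 at 0.5%, and 0.96 and -0.35 at 1.0%. Over 24 arrays their values correlated at r = -0.09. Those of Csf1r correlated at 0.64 (brightest with the second), 0.30 and 0.04, and those of C1qb at 0.01 to 0.30. Only the first of these pairs of Csf1r passed after adjustment over 7 pairs (permutation test, adjusted p = 0.00525; Spearman rho = 0.605, adjusted p = 0.0145), and r was 0.518 without the 2 arrays farthest from the median.

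**Figure D3:**
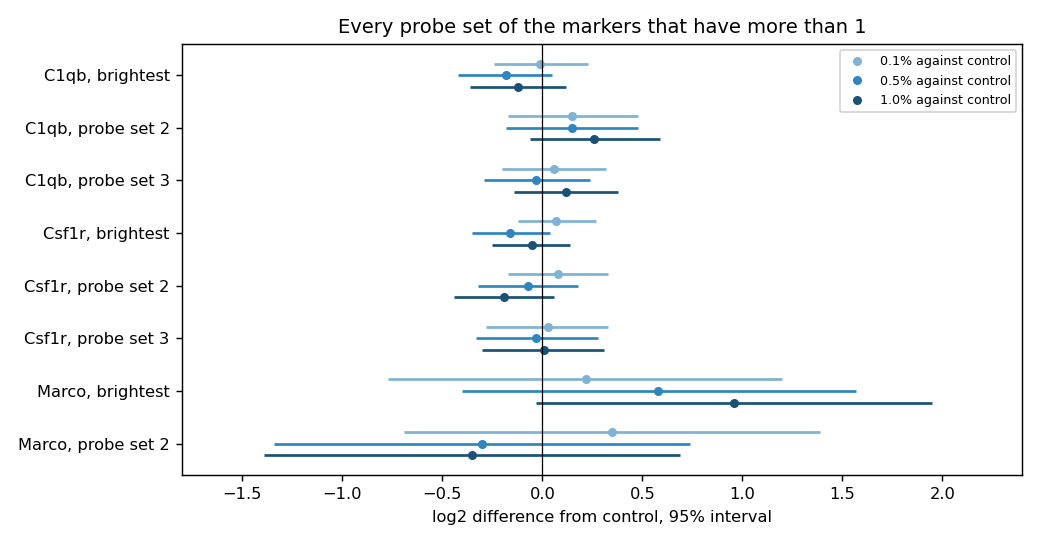
Difference from control in log2 with 95% interval (horizontal axis) for every probe set of C1qb, Csf1r and Marco, at each of 3 doses. The brightest probe set of C1qb lies at -0.12 at 1.0% and the others at 0.26 and 0.12, and those of Marco lie at 0.96 and -0.35.

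The markers varied together only weakly across the 24 arrays. Of 45 pairs, 27 had a positive Pearson r, with a median of 0.0995 and a range of -0.345 to 0.578, and 0 passed after adjustment over the 45 pairs by Pearson or Spearman, while 7 had an unadjusted Pearson p under 0.05 (two-sided permutation tests with 100000 resamples). Clec4f with C1qc was the closest pair, at r = 0.578 (Spearman rho = 0.402, unadjusted permutation p = 0.00321, adjusted p = 0.0805), and 0.383 without the 2 arrays farthest from the median. Clec4f with Csf1r gave 0.561 (rho = 0.585, adjusted permutation p = 0.0805) and 0.495 without 2 arrays. Vsig4 with Csf1r gave 0.55 (rho = 0.461, adjusted permutation p = 0.0805) and 0.368 without 2 arrays. The C1q chains gave 0.326 (C1qa with C1qb), 0.259 (C1qa with C1qc) and -0.133 (C1qb with C1qc). Within diets the median over the 45 pairs was 0.0823, with 25 positive. Without normalization between arrays 45 of 45 pairs were positive, with a median of 0.624 (each array's overall brightness is then part of every value), and centred on array medians 42 were, with a median of 0.33.

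**Figure D4:**
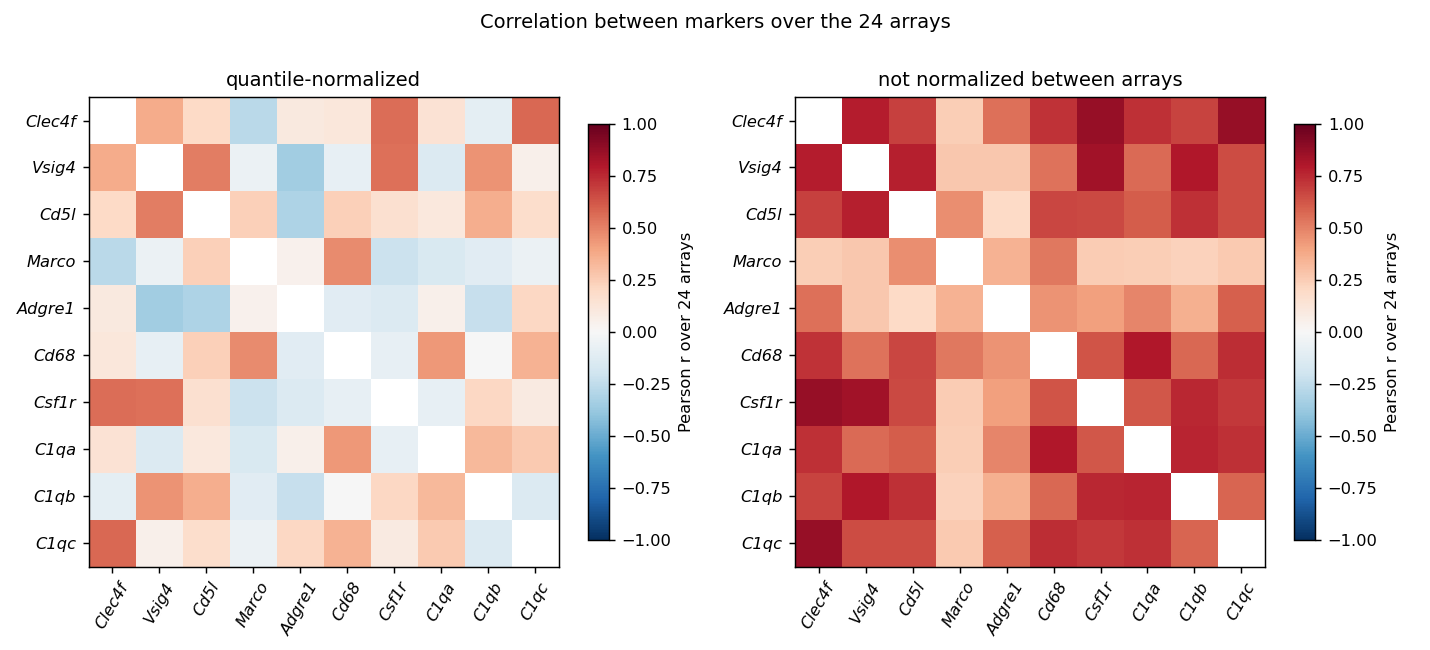
Pearson r over 24 arrays between each pair of markers (colour, from -1 to 1), after quantile normalization on the left and without normalization between arrays on the right. On the left the pairs run from -0.345 to 0.578, and on the right all 45 pairs are positive.

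Each marker was also set against the mean of the 9 others after removing diet means, and r ran from 0.03 (Adgre1) to 0.48 (C1qc). Among 9087 genes brighter than the median gene, the 10 whose residuals were most like the markers' mean were Ube2q1 (r = 0.68), Tm2d3 (0.67), Syf2 (0.67), Ing5 (0.63), Pnrc1 (0.63), Pqbp1 (0.62), Arih2 (0.62), Emg1 (0.61), Trir (0.61) and Trmt112 (0.61), over 24 arrays. The median gene had r = 0.02. These 10 were picked as the highest of 9087 values of r and were not tested. They therefore do not show that these genes vary with macrophages. None of these 10 was in the gene lists below, where the closest was Aif1, a pan-macrophage gene, at 0.60.

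Beyond the 10 markers, 19 lists held 255 genes of macrophages, their signals and other liver cell types, and 224 were measured. The list values are from quantile-normalized data alone, and whether their directions hold under the other scalings was not tested. In limma 0 of the 224 passed in any comparison, while 12 to 29 had an unadjusted p under 0.05 in the 8 tests, 5.36% to 12.9% of them against 5.11% to 10.9% of all genes. Other Kupffer cell genes split evenly at 1.0%, with 9 of 18 higher and a median of -0.04. Among them Fabp7, a fatty acid binding protein gene, lay lower by -0.93 (SE 0.31, adjusted p = 0.381) and Timd4, a receptor for dying cells, by -0.22 (SE 0.18, adjusted p = 0.785). Cd207 lay higher by 0.40 (SE 0.55, adjusted p = 0.883), and Fcna, the ficolin gene of Kupffer cells, differed by 0.04 (SE 0.08). Pan-macrophage genes were higher in 14 of 24 (median 0.06). Fcgr3, an activating Fc receptor gene, was 4.73 ± 0.17 in control and 5.18 ± 0.17 at 1.0% (SD, n = 6), a difference of 0.45 (SE 0.12, adjusted p = 0.342) with a slope of 0.49 (SE 0.11, adjusted p = 0.0725).

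The transcription factors that shape macrophages gave 6 of 13 higher at 1.0%. Zeb2, a factor that preserves tissue macrophage identity, was lower by -0.92 at 1.0% (SE 0.20, adjusted p = 0.222, slope adjusted p = 0.0778), and Id1 was higher by 0.98 (SE 0.27, adjusted p = 0.325). CSF1 and IL-34 signalling genes were higher in 6 of 12 (median -0.02) and monocyte genes in 9 of 13 (median 0.22), with Plac8 at 0.36 (SE 0.17, adjusted p = 0.558). Monocyte chemokines were higher in 7 of 13, inflammatory activation genes in 8 of 15 and alternative activation genes in 6 of 13, with medians of 0.01, 0.01 and -0.07. Phagosome and lysosome genes were higher in 7 of 16 (median -0.06), and Grn, the progranulin gene, differed by 0.35 (SE 0.10, adjusted p = 0.323). Complement genes outside C1q, mostly made by hepatocytes, were higher in 4 of 12 (median -0.06).

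Markers of other cells in the same tissue were measured beside these. Neutrophil genes lay higher at 1.0% in 10 of 11, with a median of 0.62 against -0.01 for all genes. Of these 11, 4 were brighter than the median gene, and at 1.0% 1 had an unadjusted p under 0.05 in limma, against 8.92% of all genes. At 0.5% 7 of 11 lay higher (median 0.46) and 4 had an unadjusted p under 0.05 in limma, against 7.65% of all genes. Lcn2, a secreted iron-binding protein gene that hepatocytes also make, was 4.65 ± 0.52 in control and 6.63 ± 0.93 at 1.0% (SD, n = 6; difference 1.97, SE 0.69, adjusted p = 0.415), and S100a8, a calprotectin subunit gene of neutrophils and monocytes, differed by 0.95 (SE 0.48, adjusted p = 0.607). Dendritic cell genes lay higher in 9 of 11 (median 0.43), with the class II gene H2-Eb1 at 0.58 (SE 0.16, adjusted p = 0.322). Of these 11 dendritic cell genes, 4 were brighter than the median gene, and at 1.0% 2 had an unadjusted p under 0.05 in limma, against 8.92% of all genes. Sinusoidal endothelial genes were higher in 4 of 13 (median -0.05), stellate cell genes in 3 of 11, T and NK cell genes in 5 of 10, B and plasma cell genes in 4 of 8, bile duct cell genes in 3 of 5, red blood cell genes in 0 of 3 and hepatocyte genes in 1 of 7. The part of any of these cells in the markers' values was not tested.

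**Figure D5:**
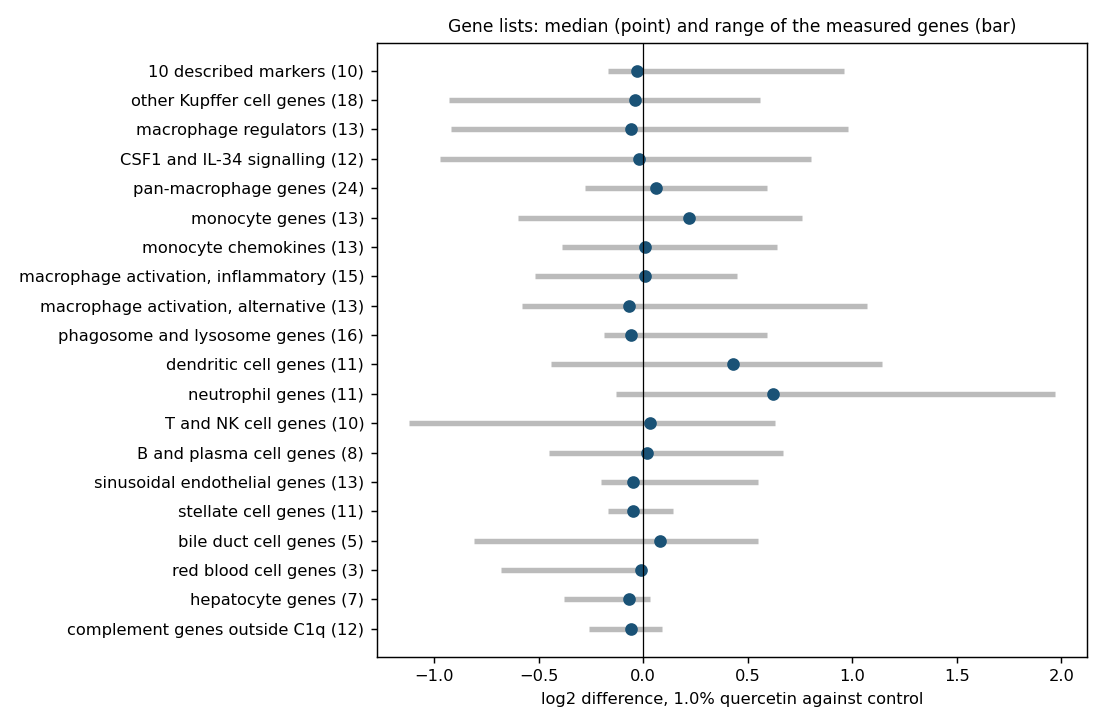
Difference of 1.0% quercetin from control in log2 (horizontal axis) for each gene list, with a point at the median of the measured genes (number in brackets) and a bar from the lowest to the highest. The 10 described markers have a median of -0.03, and the neutrophil list (0.62) and dendritic cell list (0.43) have the highest medians. Most genes of these lists are dimmer than the median gene.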

How the data were processed

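Liver RNA of 24 mice was labelled with biotin and hybridized to Affymetrix arrays, 1 per mouse, per the labels' protocols. For 45101 probe sets the authors deposited linear intensity values, and how these were summarised or background-corrected is not given in the sources used here. Their array medians were 4.78 to 7.58, and the number of arrays limits precision. Values were taken as log2(value + 1) and quantile-normalized, with the scale of dim genes compressed by the pseudocount of 1. Probe sets with a single symbol (34945) were kept and those with several (932) left out, 34741 had a RefSeq gene ID (GRCm38.p6), and 0 symbols changed. The brightest probe set stood for each of 18193 genes. All 24 arrays entered limma 3.58.1 (R 4.3.3, eBayes, two-sided), fitted per diet and per dose, with Benjamini-Hochberg adjustment over all genes and a threshold of 0.05. The fits were tested on simulated data. The markers and lists were chosen with earlier results of these data known. All 10 markers were named with every probe set; from each other list up to 4 genes with the smallest p for any difference could be named, and the 10 genes most like the markers' mean were named by r. Alternatives covered normalization, pseudocount (16), probe set choice, a filter on dim genes, eBayes options, array weights, groups fitted, replicate number, replicate set, 4 arrays apart on the first principal component, and each array left out.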

Additional observations from a re-analysis of the deposited data

Results flagged for a closer look

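Among 40 groups of 6 arrays, 1 for each marker and diet, 3 held an array far from the others by Dixon's criterion, and chance alone gives about 1 in 20 groups. For Cd5l the array of 0.5% replicate 5 was the lowest at 6.70, with the nearest of its group at 7.04. For Vsig4 the array of 0.5% replicate 2 was the highest at 7.44, with the nearest at 7.17. For C1qb the array of 1.0% replicate 2 was the lowest at 6.15, with the nearest at 6.59. The gap was 0.63, 0.665 and 0.636 of the group's range, above the 95% critical value for 6 arrays. Without that array the difference from control was -0.18 for Cd5l at 0.5%, -0.26 for Vsig4 at 0.5% and -0.03 for C1qb at 1.0%, against -0.25, -0.20 and -0.12 with it.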

How the results depend on the processing

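Turns of direction were counted for 45 results: each dose against control, the slope, and differences between doses with an unadjusted p under 0.05 in limma. The other differences between doses, among them all of 1.0% against 0.5%, were left out of this count. In 548 fits of the 45, other than those leaving out 1 array, 518 kept direction and 30 turned. All stayed on the same side of the threshold, since no marker passed in any fit. Over 2538 fits of the markers, 0 passed, and the smallest adjusted p was 0.15 (Csf1r, 0.5% against 0.1%, only genes brighter than the median). No marker passed with the replicate block (0 in each comparison). After removing diet means, same-number arrays of different diets correlated at -0.06 to 0.11 over 36 pairs. Pairs with different numbers gave -0.10 to 0.17 over 180 pairs. Of 24 arrays, 4 matched their own number best, so no pairing by number was detected. Sets of replicates had consensus correlations of 0.0445 and 0.0565. Differences from control turned as follows, and the cause was not tested. Without normalization Cd5l was 0.08, C1qa 0.06, C1qb 0.08 and Cd68 0.07 at 0.1%, Clec4f 0.14, Vsig4 0.02, C1qa 0.13, C1qb 0.03, Cd68 0.05 and Csf1r 0.07 at 0.5%, and Clec4f 0.03 at 1.0%. Centred on medians Vsig4 was -0.00 at 0.1%, Clec4f 0.05 and C1qa 0.04 at 0.5%. With probe sets averaged C1qb was 0.07 at 0.1%, 0.09 at 1.0% and 0.05 for the slope. Without the 4 arrays apart (0.5% replicates 4 and 6, 1.0% replicates 4 and 5) Clec4f was 0.05 and Csf1r 0.04 at 1.0%. Other probe sets gave 0.01 for Csf1r at 1.0%, 0.06, 0.12 and 0.08 (slope) for 1 of C1qb, and 0.15, 0.15, 0.26 and 0.20 (slope) for the other, and -0.30, -0.35 and -0.55 (slope) for Marco at 0.5%, 1.0% and slope. Leaving out 1 array moved Cd5l at 0.1% between -0.05 and 0.04, Marco between -0.06 and 0.47, C1qa between -0.06 and 0.01, C1qb between -0.04 and 0.02, Cd68 between -0.15 and 0.09, Cd68 at 0.5% between -0.24 and 0.00, and at 1.0% Clec4f between -0.06 and 0.04 and Cd68 between -0.01 and 0.23. Over all genes the number passing ranged over the alternatives and left-out arrays from 0 to 1 at 0.1% (main 0), 0 to 7 at 0.5% (3), 0 to 7 at 1.0% (4), 4 to 100 for 0.5% against 0.1% (39), 6 to 124 for 1.0% against 0.1% (46), 0 to 8 for 1.0% against 0.5% (4), 0 to 129 for the slope (18) and 4 to 104 for any difference (33). Dim genes such as Marco limit what can be seen.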
